A study of Mus musculus with 21 samples.

Results

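The genes described here are 40 genes of focal adhesions and the actin cytoskeleton, chosen by gene name for their place in this machinery, with earlier results of these data in view, so that their shares called beside those of all genes are a description of the set. Of these, 38 had a probe set of their own on the array, and 32 of the 38 passed a filter on dim probe sets, out of 19937 genes with a probe set in all and 7300 that passed. Ptk2, the focal adhesion kinase, had no probe set in the annotation used, and Actg1, cytoplasmic gamma actin, was read only by 4 probe sets that also match Actb. The 6 members that did not pass were Crip1, Tpm2, Cnn1, Tagln, Myl9 and Mylk.

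The cells were N202, a mammary tumour line from mice with a Her-2/neu transgene, labelled with a green fluorescent histone. They were placed on minced, revascularised brain, bone marrow, lung or breast tissue in a dorsal skinfold chamber of a mouse, recovered after 21 days, expanded in culture under G418 and either placed as new spheroids on fresh tissue of the same kind or sorted for fluorescence for RNA. The 21 Affymetrix Mouse Gene 1.0 ST arrays covered the parental cells (P0, 2 arrays), the cells after passages P1 to P4 on brain (2 arrays each, at 21, 42, 63 and 84 days on tissue), after P1 to P4 on bone marrow and on lung (1 array each), after P1 on breast (1 array), and after P1 and P2 of a second adaptation on brain (1 array each). All groups, P0 included, carried the same transgene and fluorescent label, and RNA was taken from cultured cells and not from the tissue. The second brain arrays of P1 to P4 are labelled technical replicate, the P0 arrays are numbered only, and as the study describes them both arrays of a pair came from separate cultures and RNA preparations. The p-values thus measure the spread between cultures of 1 line and not between adaptation experiments; P1 to P4 of a tissue were 1 line followed in time. On 5 arrays, the second of each brain pair from P1 to P4 and lung P1, the floor (the 5th percentile of all values) was 2.49 to 3.04, against 2.01 to 2.40 on the other 16.

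Focal adhesions are the plaques at which integrins bound to the matrix are linked to actin filaments. Talin binds the integrin tail, vinculin and the alpha-actinins tie it to actin, tensins and LIM domain proteins join the plaque as it matures, and myosin sets the contractile tension on the fibres. Tension and monomeric actin levels feed back on transcription through serum response factor, which binds CArG boxes, and through YAP with TEAD factors. In mammary epithelium these proteins hold cells to the basement membrane, and the calponin, transgelin and smooth muscle light chain genes mark contractile myoepithelium more than luminal cells.

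The cell type named in the labels was checked on marker genes. Of 8 markers of mammary epithelium 7 passed the filter, among them Krt8 between 12.35 and 13.21 and Epcam between 10.08 and 10.87 on all arrays (log2 RMA values, as are all levels below). None of 8 fibroblast and none of 6 endothelial markers passed it, with Col1a1 at no more than 6.49 and Cdh5 at no more than 4.94, and Ptprc, the pan-leukocyte antigen, stayed at or below 4.56. Krt14 passed alone among 6 basal markers and Smtn alone among 8 of smooth muscle or pericytes. Of 8 neuron or glia markers 7 had a probe set, and Mbp alone passed. Cd14 and Cd68 passed among 6 leukocyte markers. The sum of the 6 leukocyte levels was 32.27 and 32.88 on the P0 arrays. It was 34.29 to 35.34 at brain P1 and P2 and 32.15 to 35.82 at brain P3 and P4. Cd68 was 5.99 and 6.03 in P0, 7.62 to 8.48 at brain P1 and P2 and 8.22 on the second P4 array. Ptprc, Csf1r, Lyz2 and Cd52 did not pass the filter. At brain P1 and P2 Csf1r was 4.40 to 4.71 (4.91 and 4.63 in P0). Lyz2 was 3.46 to 4.38 there (4.11 and 4.07 in P0) and Cd52 3.31 to 3.59 (3.22 and 3.59 in P0). Krt14 was 10.67 and 9.76 in P0 and 8.25 to 9.73 on the arrays of brain P1 and P2. At an adjusted p under 0.05 it was called lower at P2, by -1.60, and higher late than early on brain, by 1.42. It was also called lower on early brain than on early marrow and lung, by -1.49. Between the adaptations on brain it was called higher in the second, by 1.68. Cd14 was 10.28 and 10.65 in P0 and 10.85 to 11.04 on the early brain arrays. Both leukocyte genes were lower late than early on brain, by -0.87 for Cd68 (adjusted p = 0.031) and -0.78 for Cd14 (adjusted p = 0.0129). They were higher on early brain than on early marrow and lung, by 1.86 and 0.64 (adjusted p = 0.00123 and 0.0312), and lower in the second than in the first adaptation on brain, by -1.40 and -0.86 (adjusted p = 0.0193 and 0.0331). Erbb2, the mouse gene of the Her-2/neu receptor, was the mammary marker called against P0. It was 10.69 and 10.71 in P0 and 9.56 and 9.46 at brain P1. It fell by 1.19 at P1, 0.76 at P2 and 1.24 at P3 (adjusted p = 0.0153, 0.0476 and 0.039). Elsewhere Erbb2 was 9.21 to 10.10 on marrow, 10.24 to 11.00 on lung, 9.78 on breast and 9.01 and 10.25 in the second adaptation on brain. It was not called against P0 there. Between late and early brain 1 mammary marker was called, lower late. That marker was not Erbb2, whose early levels all lay within the range of its late ones. Krt14, Cd68 and Cd14 were called in comparisons in which members described below were also called. Erbb2 was called at brain P1 and P2, where members were called, but also at P3, where none was. The part of these markers in the changes of the members was not tested.

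Promoter sequences show which members carry the letters of the binding motifs of these factors. The promoters, 250 bases before to 50 bases after the annotated start, were taken from RefSeq on GRCm38.p6 and were found for 33 of the 40 members. No promoter was found for Tns4, Actb, Parva, Pxn, Ptk2, Tagln and Ctgf, which were therefore not searched. A CArG box, read on both strands, lay in the promoter of 6 of the 33 (Srf, Vcl, Cnn2, Lima1, Myl9 and Actg1) and of 1.81% of all 27025 genes in the table. The TEAD letters GGAATG, in either orientation, lay in 10 of the 33 and in 16.6% of all genes, and did not overlap a CArG box in any member. The stretches below are those of Srf and of 4 members whose levels differed between early and late brain passages (below), with CArG boxes and GGAATG in capitals, 5′ to 3′ on the strand of the gene.
Vcl, chr14:20929148-20929205, plus strand: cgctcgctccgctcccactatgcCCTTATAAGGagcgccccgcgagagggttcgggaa
Cnn2, chr10:79988519-79988578, plus strand: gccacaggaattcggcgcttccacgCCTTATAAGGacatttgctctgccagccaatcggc
Lima1, chr15:99820162-99820221, minus strand: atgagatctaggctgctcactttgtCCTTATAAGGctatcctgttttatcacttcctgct
Srf, chr17:46556190-46556269, minus strand: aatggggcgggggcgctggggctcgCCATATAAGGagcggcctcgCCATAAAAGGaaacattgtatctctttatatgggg
Ankrd1, chr19:36119937-36120079, minus strand: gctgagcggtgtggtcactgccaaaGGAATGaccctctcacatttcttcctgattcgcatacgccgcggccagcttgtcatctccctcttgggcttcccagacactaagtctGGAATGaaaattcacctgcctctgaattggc
The box of Vcl began at position -227, that of Cnn2 at -56 and that of Lima1 at -47, with -1 the base before the start. The 3 boxes had the same 10 letters, although Lima1 moved against Vcl and Cnn2 in the data below. A match of letters is a description of the sequence and was not set against any measurement of binding.

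The changes were centred on the first 2 passages on brain in the first adaptation. There Tns4, a tensin of focal adhesions, and Crip2, a LIM domain protein, fell many-fold and were back near their parental level at P3 and P4. Vinculin, talin, alpha-actinin 1, Rhoc, calponin 2 and Ankrd1 differed by smaller amounts in the same direction between early and late passages, and Lima1 in the opposite one. No member was called on marrow, lung or breast, at brain P3 or P4, or in the second adaptation on brain, each against P0.

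**Figure D1:**
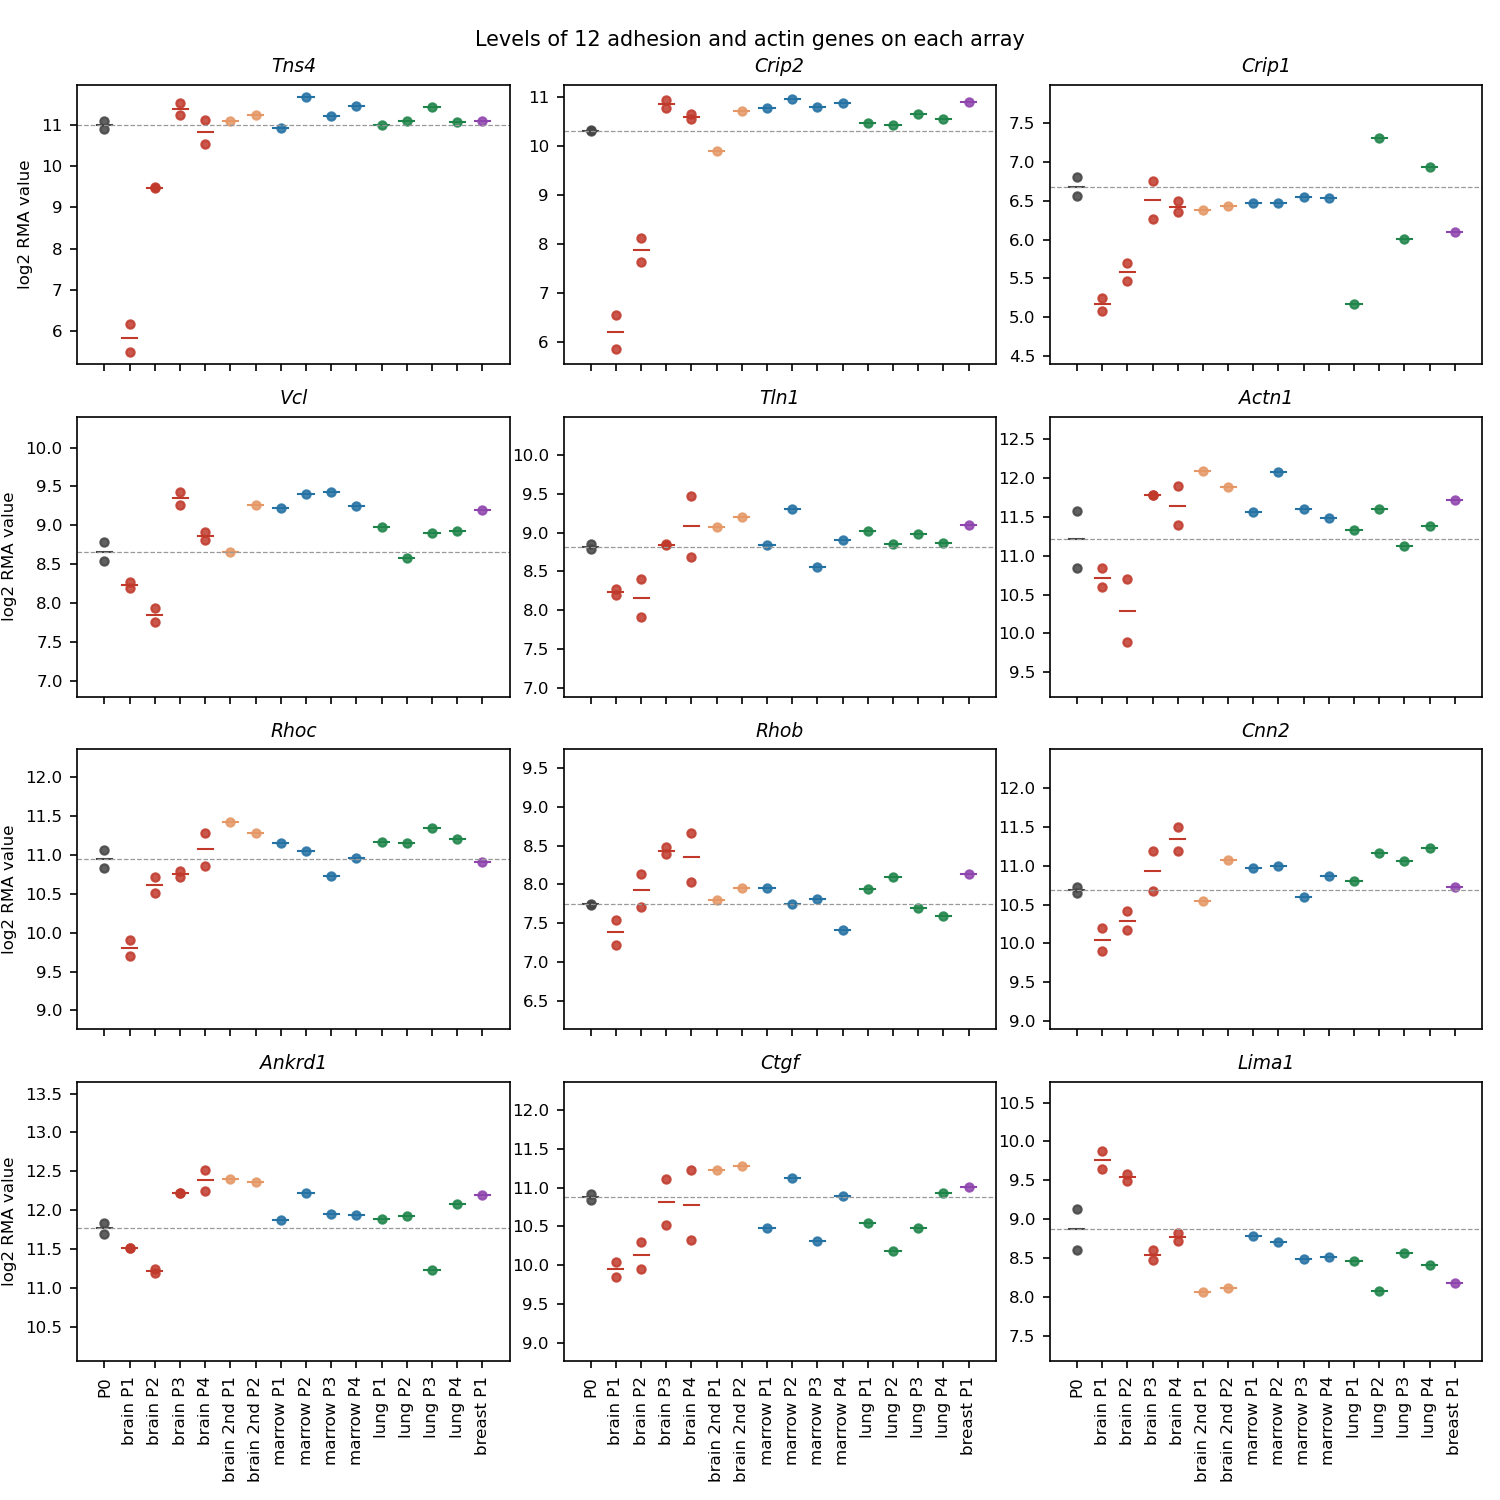
Levels of 12 members on each of the 21 arrays (log2 RMA value on the vertical axis; groups on the horizontal axis; a point is 1 array, a short bar the mean of its group, the dashed line the mean of P0). Tns4 fell to 6.17 and 5.51 and Crip2 to 6.54 and 5.85 on the 2 arrays of brain P1, and both were at 9.89 or above on every array outside brain P1 and P2.

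Among the proteins of the adhesion plaque, Tns4 moved most. Tns4, the tensin without an actin-binding region, which can displace other tensins from integrin tails, was 11.09 and 10.88 in the P0 cells. It was 6.17 and 5.51 at brain P1, 9.49 and 9.46 at P2, 11.53 and 11.22 at P3, and 11.12 and 10.53 at P4. On the other arrays it lay between 10.91 and 11.67, including 11.08 and 11.23 in the second adaptation on brain. The arrays of brain P1 and P2 were thus the only 4 below 10.53, and those of P1 lay below 7.33, the lowest group mean that passed the filter, so that the size of the fall at P1 is uncertain. In RNA of whole cultures, fewer cells with the transcript and less transcript per cell cannot be told apart. At P2 the log2 fold change from P0 was -1.51 (standard error 0.27, adjusted p = 0.0109, n = 2 arrays in each group).

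Crip2, a small LIM domain protein best known from the heart and vessels, followed the same course. It was 10.31 and 10.32 in P0, 6.54 and 5.85 at brain P1, 7.64 and 8.11 at P2, 10.93 and 10.77 at P3 and 10.64 and 10.55 at P4. On marrow, lung and breast it lay between 10.43 and 10.95, and in the second adaptation on brain it was 9.89 at P1 and 10.71 at P2. The early brain arrays of the first adaptation did not overlap with any other array. The log2 fold change from P0 was -4.11 (standard error 0.25, adjusted p = 7.47e-05) at P1 and -2.43 (standard error 0.25, adjusted p = 0.0013) at P2, with both P1 arrays below 7.33 and the size at P1 again uncertain. Crip1, its paralog, which in the RefSeq order of chromosome 12 is separated from Crip2 by a single annotated gene, was too dim to pass the filter. Its level was 6.56 and 6.81 in P0, 5.25 and 5.08 at brain P1, 5.47 and 5.70 at P2 and 6.26 to 6.75 at P3 and P4, but 5.17 also on the lung P1 array. The tested genes next to Crip2, Mta1 and Tedc1, differed from P0 by -0.45 and -0.48 at brain P1 (adjusted p = 0.196 and 0.162), and all 5 tested genes on each side of it were lower, from -0.15 to -0.63, with none called. The median change of all 270 tested genes of chromosome 12 was -0.24 at P1. Next to Tns4 on chromosome 11, Igfbp4, a binding protein of insulin-like growth factors, rose by 1.25 at brain P1 (adjusted p = 0.017). None of the other 9 tested genes within 5 places of Tns4 was called at P1. Krt14, 4 places from Tns4, was called at P2, by -1.60, and between late and early brain, by 1.42.

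Across the members, 4 of 32 were called at brain P1 (adjusted p under 0.05), where 5.55% of all 7300 genes were called. Of the 4, 1 was higher and 3 were lower, beside 1.93% of all genes higher and 3.62% lower. At P2 3 of 32 were called, all lower, against 13.3% of all genes in either direction and 8.37% lower, a share of members near the background. The median change of the 32 was -0.19 at P1 and -0.17 at P2, and that of all genes -0.02 and -0.05; 21 and 23 members were lower. Beside Tns4 and Crip2, the calls were Rhoc and Lima1 at P1 and Vcl at P2. Without the first or the second P1 array 2 members were called at P1, and 2 with the first P0 array left out; the lone array left is then assumed to vary like the other groups. When the second adaptation entered the P1 and P2 groups as a second line, no member was called, and Tns4 was at -3.06 (standard error 1.39, adjusted p = 0.997) and Crip2 at -2.64 (standard error 1.18, adjusted p = 0.997) at P1.

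Rhoc is a gene best known from tumour cell invasion. Its level was 11.07 and 10.83 in P0, 9.91 and 9.70 at brain P1, 10.72 and 10.51 at P2, 10.72 and 10.79 at P3 and 11.29 and 10.86 at P4, and it lay between 10.73 and 11.42 on the other arrays. The arrays of P1 stood alone at the bottom. The log2 fold change at P1 was -1.15 (standard error 0.20, adjusted p = 0.0165). Without the first or second P1 array the adjusted p was 0.072 or 0.131, and without the first or second P0 array 0.0962 or 0.0538. The median change of all tested genes of chromosome 3, on which Rhoc lies, was -0.30 at P1, and with chromosome medians subtracted the value for Rhoc was -0.85 (adjusted p = 0.0579).

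Lima1 encodes EPLIN, a LIM domain protein that bundles and stabilises actin filaments. It was the only member called higher at P1. Its level was 8.60 and 9.14 in P0, 9.88 and 9.64 at brain P1, 9.50 and 9.57 at P2, 8.47 and 8.60 at P3 and 8.83 and 8.72 at P4. On marrow, lung and breast it was 8.07 to 8.78, and in the second adaptation 8.06 and 8.11. The 4 early brain arrays of the first adaptation were above all others. The log2 fold change was 0.89 (standard error 0.21, adjusted p = 0.0468) at P1 and 0.67 (standard error 0.21, adjusted p = 0.0771) at P2. The P1 call was lost without the first or second P1 array (adjusted p = 0.241 and 0.145), the first P0 array (0.208) or the 5 arrays of highest floor (0.311), with no filter on dim probe sets (0.267) and with chromosome medians subtracted (0.052).

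Vcl, vinculin, the adaptor that reinforces the link of talin to actin under load, was lowest at brain P2. Its level was 8.54 and 8.78 in P0, 8.19 and 8.27 at P1, 7.76 and 7.94 at P2, 9.43 and 9.26 at P3 and 8.91 and 8.81 at P4, and 8.58 to 9.43 elsewhere. The 4 early brain arrays were below all others, and those of P3 were above both P0 arrays. The change from P0 was -0.81 at P2 (standard error 0.17, adjusted p = 0.0206), and leaving out the first or second P2 array gave an adjusted p of 0.119 or 0.064, the first or second P0 array 0.0591 or 0.103. The tested genes of chromosome 14, where Vcl lies, had a median change of -0.35 at P2, and with chromosome medians subtracted that of Vcl was -0.46 (adjusted p = 0.105). With no filter its adjusted p at P2 was 0.176. The Tns4 call at P2 was lost without the first or second P2 array (adjusted p = 0.0549 and 0.0577) or the first P0 array (adjusted p = 0.0749).

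**Figure D2:**
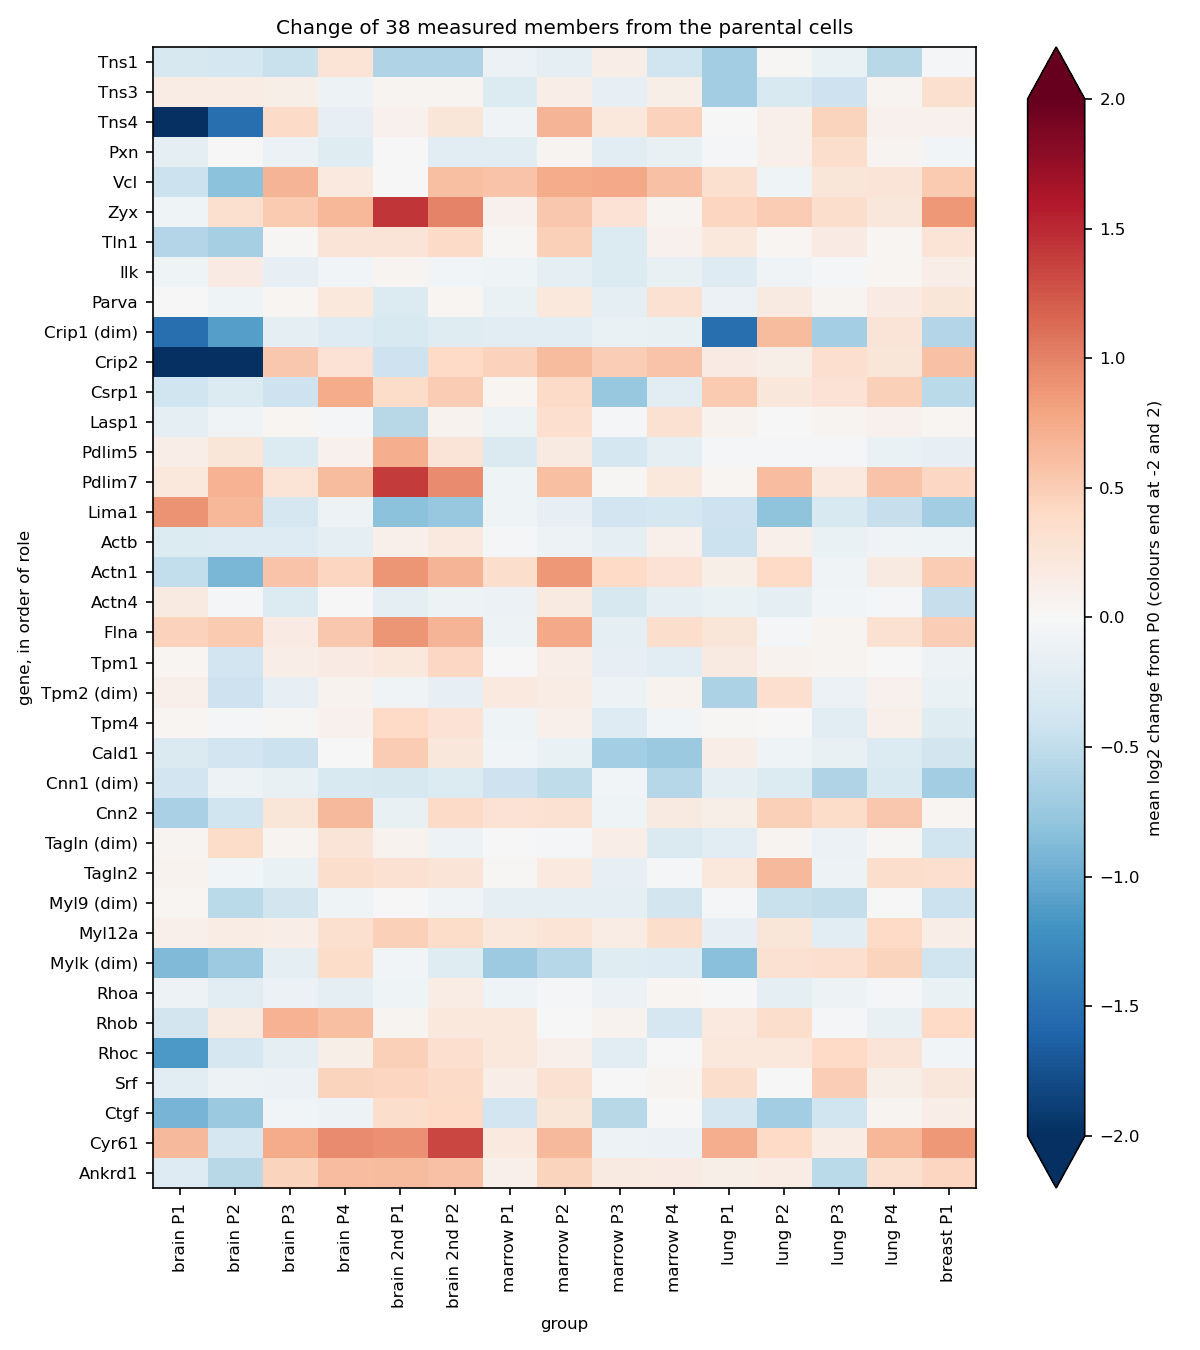
Mean log2 change from P0 of the 38 measured members (rows, in order of role) in each of the 15 other groups (columns), blue for lower and red for higher, with the colours ending at -2 and 2; dim marks the 6 members that did not pass the filter. Tns4 and Crip2 at brain P1 reach -5.15 and -4.11, beyond the end of the scale, and the lowest change of a kept member outside brain P1 and P2 was -0.81, of Lima1 at P1 of the second adaptation.

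By a fold limit alone, 3 of the 32 kept members were at least 2-fold below P0 at brain P1 (3.88% of all genes) and 2 at P2 (5.56% of all genes), and none was in any other group. Members at least 2-fold above P0 were found only in the second adaptation on brain, with 2 at P1 (3.95% of all genes) and 1 at P2 (1.33% of all genes). Zyx, zyxin, a tension-sensing protein of the plaque, was 9.69 and 8.84 in P0, 10.69 at P1 and 10.26 at P2 of that adaptation, and 8.96 to 10.30 on the other arrays. Its change there over both passages was 1.21 (adjusted p = 0.227). Pdlim7, an enigma family scaffold, was 8.88 and 8.42 in P0 and 10.05 and 9.59 in the second adaptation. Its change there over both passages was 1.17 (95% interval 0.58 to 1.76, adjusted p = 0.126). The member past 2-fold at P2 was Cyr61.

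The passages on brain were then compared with each other, P3 and P4 against P1 and P2, with 4 arrays on each side and no P0 array. The question is which members differed between early and late cells of 1 line. Of the 32 members 11 were called, which is 34.4% beside 27.5% of all genes. In the late cells 10 were higher and 1 was lower, beside 10.9% and 16.6% of all genes. The median difference of the members was 0.21 and that of all genes -0.10. The share called was thus not far above that of all genes, while the split by direction was 10 to 1 among the members.

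Crip2 was 3.69 higher late than early (standard error 0.18, adjusted p = 7.52e-06) and Tns4 3.44 higher (standard error 0.19, adjusted p = 1.14e-05). Of the 4 early arrays, the 2 of P1 were below 7.33 for both genes, so the sizes of these differences are uncertain, here and in the comparisons below that use the P1 arrays. Vcl was 1.07 higher (standard error 0.12, adjusted p = 0.000657). Within the first arrays of the pairs alone, the difference was 3.69 for Crip2, 3.49 for Tns4 and 1.20 for Vcl, and within the second arrays 3.68, 3.39 and 0.93.

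Actn1, alpha-actinin 1, which crosslinks the filaments of stress fibres, was 11.58 and 10.84 in P0. On brain it was 10.84 and 10.59 at P1, 10.70 and 9.89 at P2, 11.78 and 11.78 at P3 and 11.89 and 11.40 at P4. The late and early arrays did not overlap, and 1 of the P0 arrays stood with each of them. Actn1 was 1.21 higher late than early (standard error 0.23, adjusted p = 0.00693). Its paralog Actn4 was 0.22 lower late than early (standard error 0.11, adjusted p = 0.176).

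Tln1, talin 1, was 8.85 and 8.79 in P0, 8.20 and 8.27 at brain P1, 8.41 and 7.91 at P2, 8.84 and 8.86 at P3 and 9.47 and 8.69 at P4. Every late array was above every early one. The difference was 0.77 (standard error 0.19, adjusted p = 0.0194). The tested genes of chromosome 4, where Tln1 lies, had a median difference of 0.52, and with chromosome medians subtracted that of Tln1 was 0.24 (adjusted p = 0.375). The call was also lost without the first or second P1 array (adjusted p = 0.062 and 0.055), the second P2 array (0.0652) or the second P3 array (0.0522). For Vcl the median of chromosome 14 was 0.34 between late and early brain, and with the medians subtracted its difference was 0.73 (adjusted p = 0.00302).

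Cnn2, the non-muscle calponin, was 10.65 and 10.73 in P0. On brain it was 10.19 and 9.90 at P1, 10.42 and 10.17 at P2, 10.68 and 11.20 at P3 and 11.50 and 11.19 at P4. The late arrays were all above the early ones, with a difference of 0.97 (standard error 0.16, adjusted p = 0.00356).

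Rhoa, Rhob and Rhoc, which encode small GTPases, differed among themselves. Rhoc was 0.70 higher late than early (standard error 0.14, adjusted p = 0.00877). Rhob, an immediate-early gene, was 7.74 and 7.74 in P0, 7.54 and 7.22 at brain P1, 7.72 and 8.14 at P2, 8.39 and 8.48 at P3 and 8.66 and 8.03 at P4. The highest early array was above the lowest late one. Rhob was 0.74 higher late (standard error 0.17, adjusted p = 0.0167), and without the second P1 array or the first P2 array its adjusted p was 0.0653 or 0.058. Rhoa, the main driver of stress fibres, stayed between 12.56 and 12.98 on all 21 arrays by the probe set used and was 0.01 higher late than early (standard error 0.11, adjusted p = 0.976). Which transcript that probe set reads is uncertain, since all 10 named probe sets with the nearest numbers belong to genes of chromosome 4, while Rhoa lies on chromosome 9. A second probe set of Rhoa, numbered among those of chromosome 9, lay between 12.15 and 12.66 and was 0.04 higher late than early.

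Of the transcription factor and the genes read as its or YAP's targets, Ankrd1, a cofactor with ankyrin repeats, was 11.70 and 11.84 in P0. It was 11.51 and 11.51 at brain P1, 11.18 and 11.24 at P2, 12.22 and 12.22 at P3 and 12.52 and 12.24 at P4. All late arrays were above both P0 arrays and all early ones below, and the difference was 0.94 (standard error 0.12, adjusted p = 0.00099). Outside brain, lung P3 was as low as early brain, at 11.23.

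Ctgf, the matricellular CCN2, was 10.92 and 10.84 in P0, 9.85 and 10.05 at brain P1, 9.95 and 10.30 at P2, 10.52 and 11.11 at P3 and 11.23 and 10.32 at P4. Late arrays were above early ones by 0.76 on average (standard error 0.22, adjusted p = 0.0369). The lowest late array, at 10.32, was barely above the highest early one, at 10.30, and lung P2 stood at 10.19. Its call was lost without any 1 of 6 arrays: the first or second of P1 (adjusted p = 0.107 and 0.0759), the first or second of P2 (0.109 and 0.0566), the second of P3 (0.112) or the first of P4 (0.08). Cyr61, the related CCN1, was 10.76 and 10.04 in P0, 11.12 and 10.98 at brain P1, 10.31 and 9.82 at P2, 11.21 and 11.08 at P3 and 11.77 and 10.92 at P4. The P1 arrays of Cyr61 stood with the late ones and only those of P2 were low, and it was not called (0.69, standard error 0.23, adjusted p = 0.0603). Srf itself, the serum response factor, ranged from 7.93 to 9.35 over all arrays and was 0.33 higher late (standard error 0.25, adjusted p = 0.364).

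Lima1 was the member that was lower in the late cells, by -0.99 (standard error 0.15, adjusted p = 0.00217). With the 5 arrays of highest floor left out, 2 of the 11 members were still called, Crip2 at 3.69 (adjusted p = 0.0161) and Tns4 at 3.49 (adjusted p = 0.0193), with 1 array in each brain group. Without a filter on dim probe sets 6 of the 11 were called, and with them Crip1, 1.09 higher late than early (standard error 0.17, adjusted p = 0.0192).

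**Figure D3:**
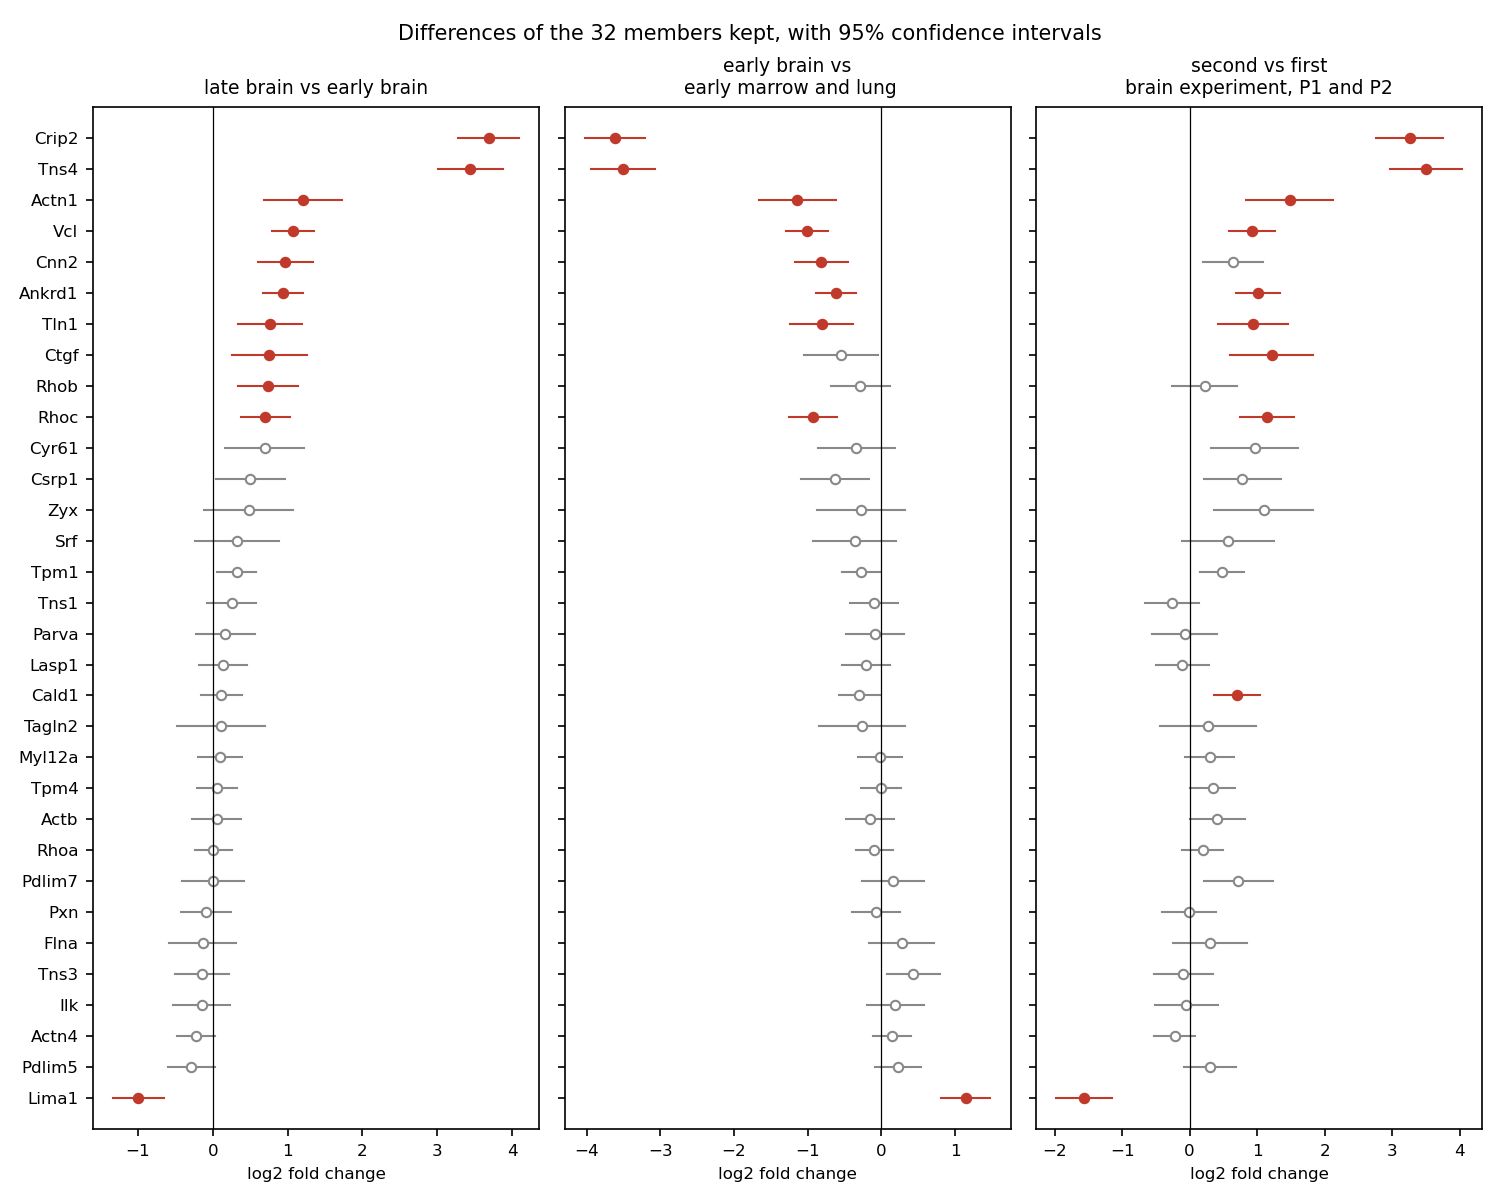
Log2 differences of the 32 kept members with 95% confidence intervals in 3 comparisons (horizontal axes; each panel has its own scale), ordered by the difference between late and early brain passages; filled red points are called at an adjusted p under 0.05. Crip2 and Tns4 lie at -3.62 and -3.51 against early marrow and lung and above 3 in the other panels. The early brain arrays of the first adaptation enter all 3 panels.

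Early brain cells were also set against P1 and P2 of marrow and lung, 4 arrays on each side, which asks whether the early changes were shared with the other tissues. Of 32 members 9 were called, which is 28.1% beside 23.6% of all genes. On brain 1 of them was higher and 8 were lower, beside 9.84% and 13.7% of all genes. The median of the members was -0.27 and that of all genes 0.00. Crip2 was -3.62 (standard error 0.18, adjusted p = 7.45e-06) and Tns4 -3.51 (standard error 0.19, adjusted p = 1.52e-05). Actn1 was -1.14, Vcl -1.01, Rhoc -0.92, Cnn2 -0.81, Tln1 -0.81 and Ankrd1 -0.61, with adjusted p from 0.000929 to 0.0173. Lima1 was 1.15 higher on brain (standard error 0.15, adjusted p = 0.00119). The Tln1 call was lost without the first or second brain P1 array (adjusted p = 0.0575 and 0.0513), without the second P2 array (0.0603), and with chromosome medians subtracted, where the difference was -0.19 (adjusted p = 0.523). With the chromosome medians subtracted Vcl was -0.47 (adjusted p = 0.0243), where the median of chromosome 14 was -0.57. Without a filter 5 of the 9 were called, with Actn1, Ankrd1, Cnn2 and Tln1 lost, and Crip1 was called at -0.98 (adjusted p = 0.029).

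On marrow, the 4 passages together against P0 gave 0 calls among the 32 members with limma, where 0.37% of all genes were called, and 3 members had an unadjusted p under 0.05. Vcl was 9.23, 9.40, 9.43 and 9.25 at P1 to P4, above both P0 arrays each time. Its mean change was 0.66 (95% interval 0.32 to 1.01, adjusted p = 0.211). The median change of the tested genes of chromosome 14, where Vcl lies, was 0.28 on marrow. On lung there were 0 calls where 0.205% of all genes were called, and 1 member had an unadjusted p under 0.05. That member was Lima1, at 8.46, 8.07, 8.56 and 8.41, with a mean change of -0.49 (95% interval -0.90 to -0.08, adjusted p = 0.821). For the mean over the 4 passages, the intervals of Tns4 were -0.22 to 0.85 on marrow and -0.38 to 0.69 on lung. They do not measure single passages, each read on 1 array. On those arrays Tns4 was at 10.91 or above on marrow and at 11.00 or above on lung. The single breast array gave 0 calls, where 0.26% of all genes were called, with 3 members at an unadjusted p under 0.05, and its Tns4 level was 11.08.

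At P3 and P4 on brain there were 0 calls among the members, against 0.658% and 1.01% of all genes, and 5 and 6 members had an unadjusted p under 0.05. The median change of the members from P0 was 0.03 and 0.21, and that of all genes -0.10 and -0.19. Tns4 differed from P0 by 0.39 at P3 (95% interval -0.23 to 1.01) and by -0.17 at P4 (95% interval -0.78 to 0.45), and Crip2 by 0.54 (95% interval -0.04 to 1.11) and 0.29 (95% interval -0.29 to 0.86). These comparisons share the P0 arrays with those of P1 and P2.

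The second adaptation on brain was compared with P0 and with the first adaptation. Against P0 there were 0 calls with limma among the 32 members, where 0.315% of all genes were called, and 10 members had an unadjusted p under 0.05. Of the members 24 were higher than in P0 and the median was 0.30, with all genes at -0.02. Tns4 was at 0.17 (95% interval -0.45 to 0.78) and Crip2 at -0.01 (95% interval -0.59 to 0.56). Cyr61 was 11.31 and 11.73, with a change of 1.12 (95% interval 0.37 to 1.87, adjusted p = 0.214).

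Against P1 and P2 of the first adaptation, 10 of 32 members were called, which is 31.2% beside 13.3% of all genes. In the second 9 were higher and 1 was lower, beside 7.82% and 5.45% of all genes. The median difference of the members was 0.45 and that of all genes 0.02. Tns4 was 3.50 higher (standard error 0.24, adjusted p = 7.78e-05) and Crip2 3.26 higher (standard error 0.22, adjusted p = 7.78e-05). Actn1, at 12.09 and 11.88 in the second adaptation, was 1.48 higher (adjusted p = 0.0124), Rhoc 1.14 higher (adjusted p = 0.00486), Ankrd1 1.02 higher (adjusted p = 0.00343) and Vcl 0.92 higher (adjusted p = 0.00636). Lima1 was lower by -1.57 (standard error 0.18, adjusted p = 0.0013). Ctgf was 1.21 higher (adjusted p = 0.0229), a call lost without the first or second P1 array (adjusted p = 0.0643 and 0.0529) or the first P2 array (0.0563). Tln1 was 0.94 higher (adjusted p = 0.0333), a call lost without the first or second P1 array (adjusted p = 0.0853 and 0.0795) or the second P2 array (0.0854), and with chromosome medians subtracted (adjusted p = 0.4). Cald1, caldesmon, which binds actin and tropomyosin, was called here and in no other comparison. It was 10.40 and 10.12 in the second adaptation, 9.60, 9.61, 9.45 and 9.57 in the first and 9.91 and 9.87 in P0. Cald1 differed by 0.70 (standard error 0.15, adjusted p = 0.0187), and without the first or second P1 array the adjusted p was 0.0565 or 0.0574. The second adaptation had 1 array per passage, so adaptation and array cannot be told apart.

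**Figure D4:**
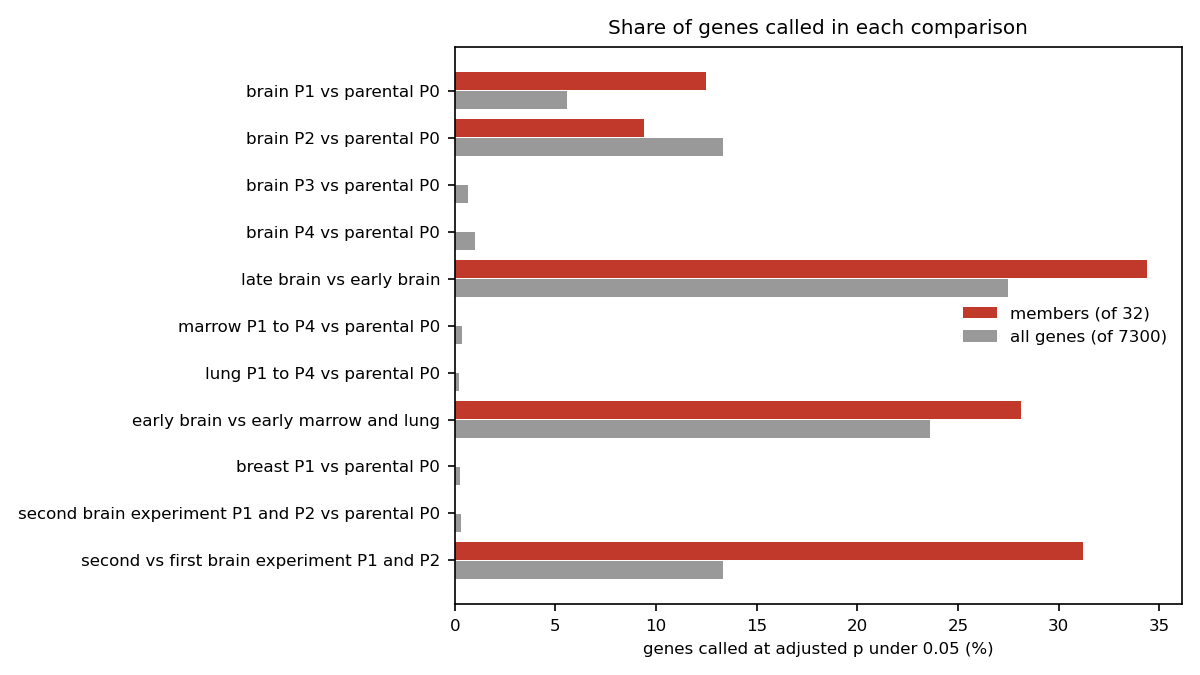
Share of genes called at an adjusted p under 0.05 (horizontal axis, %) in each comparison (vertical axis), red for the 32 kept members and grey for all 7300 genes. The members' share was 12.5% beside 5.55% at brain P1, 9.38% beside 13.3% at P2, 34.4% beside 27.5% between late and early brain, and 31.2% beside 13.3% between the adaptations.

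Of the 32 kept members 20 were called in no comparison, and they were split evenly by their range over all 21 arrays, 10 with less than 1 on the log2 scale and 10 with 1 or more. The widest ranges among them were those of Cyr61, Csrp1, Zyx and Pdlim7. Csrp1, a LIM domain protein that binds alpha-actinin, ran from 9.11 to 10.97, with the lowest value at marrow P3 and the highest on the first brain P4 array, whose pair stood at 10.26. Tagln2, a transgelin of non-muscle cells, ran from 10.29 to 11.65 and Pdlim5, a scaffold of the enigma family, from 10.24 to 11.33. Among the 10 with a range of less than 1 were Actb, beta actin, from 13.48 to 14.09, Tpm4, a non-muscle tropomyosin, from 11.08 to 11.73, Ilk, the integrin-linked pseudokinase, from 9.68 to 10.42, Parva, its partner alpha-parvin, from 9.65 to 10.42, and Pxn, paxillin, from 9.20 to 9.96. The 4 probe sets shared by Actg1 and Actb had changes of -0.10 to 0.36 at brain P1 and -0.22 to 0.08 at P2. The second probe set of Rhoa had changes of -0.04 and -0.27 there. Flna, filamin A, ranged from 10.32 to 11.44 and was not called in any comparison. Tns1 and Tns3, the other tensins among the members, did not follow the fall of Tns4 at brain P1. Tns1, at 7.65 to 8.71, had a change of -0.32 there and Tns3, at 8.33 to 9.37, one of 0.14, neither called. Tns2, a tensin outside the members, is described below.

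The smooth muscle members were dim in all groups. Tpm2, Cnn1, Tagln and Myl9, a tropomyosin, the smooth muscle calponin, transgelin and the smooth muscle light chain, stayed between 3.56 and 5.30 on all arrays, as did Acta2, smooth muscle actin, at no more than 5.35. Mylk, the kinase of the light chain, was 6.06 and 6.01 in P0, 4.95 and 5.36 at brain P1, 5.06 and 5.56 at P2, 5.66 and 6.03 at P3 and 6.53 and 6.27 at P4. The early brain arrays were below P0, but so were the marrow arrays at 5.31 to 5.79, lung P1 at 5.21 and breast at 5.64. The second adaptation on brain was also below P0, at 5.99 and 5.80. Mylk was too dim to be tested. Myl12a, the non-muscle light chain, lay between 10.73 and 11.42 and was not called in any comparison.

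Other genes of the same machinery, from 3 lists, were read in the same fit. Of 22 other focal adhesion genes that passed the filter, 3 were called at brain P1, 1 higher and 2 lower, and 6 between late and early brain, 2 higher and 4 lower late. These shares were 13.6% beside 5.55% of all genes at P1 and 27.3% beside 27.5% between late and early brain. At P2 the calls were 2, 1 higher and 1 lower, a share of 9.09% beside 13.3% of all genes. Pdlim1, a LIM protein of stress fibres, fell by 1.57 at P1 (adjusted p = 0.00216) and was 1.27 higher late than early (adjusted p = 0.000289). Lpp, a zyxin family protein, rose by 0.97 at P1 (adjusted p = 0.0165) and by 1.73 at P2 (adjusted p = 0.00107). Tns2, another tensin, was 1.24 higher late than early (adjusted p = 0.00136), and Enah, which elongates filaments, fell by 0.85 at P1 (adjusted p = 0.0382).

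Of 31 genes of actin assembly and bundling, 1 was called at P1 and 5 at P2, and 8 between late and early brain, 6 of them higher late. The shares were 3.23%, 16.1% and 25.8% beside 5.55%, 13.3% and 27.5% of all genes, and none was far from the background. Capzb, a subunit of the protein that caps filament ends, fell by 0.68 at P1 (adjusted p = 0.04) and by 0.85 at P2 (adjusted p = 0.0109). Capza1, its partner, fell by 1.22 at P2 (adjusted p = 0.0225), and Cap1, which binds actin monomers, was 0.64 higher late than early (adjusted p = 0.0069). Capzb and Cap1 lie on chromosome 4, whose tested genes had a median change of -0.58 at P1 and -0.56 at P2. Between late and early brain that median was 0.52. The median of chromosome 3, where Capza1 lies, was -0.36 at P2. The part of these chromosome shifts in the changes of the 3 genes was not tested. The median of the list was 0.17 between late and early brain, with all genes at -0.10.

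Of 19 factors and other targets of serum response factor and YAP, 3 were called at P1, all higher, and 3 between late and early brain, all lower late. The shares were 15.8% in both, beside 5.55% of all genes at P1, with 1.93% higher, and 27.5% between late and early brain, with 16.6% lower late. At P2 the calls were 2, both higher, a share of 10.5% beside 13.3% of all genes. Edn1, endothelin 1, rose by 2.50 at P1 (standard error 0.35, adjusted p = 0.00606), and Cdc42ep3, an effector of Cdc42, by 1.08 (adjusted p = 0.0146). Tgfb2, a transforming growth factor, rose at P2 by 1.35 (adjusted p = 0.0153). Tgfb2 was lower late than early by -1.84 (adjusted p = 0.000348). The median of the list was -0.08 between late and early brain.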

How the data were processed

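RNA of 21 cultures was hybridised to Affymetrix Mouse Gene 1.0 ST arrays, and groups were taken from the labels. The deposited log2 values per probe set had been made by the authors with RMA (background correction, quantile normalisation and median polish) and were not rescaled. Of 34760 probe sets, 21640 carried 1 gene symbol, 1321 several and 11799 none. For each gene the probe set with the highest mean was used, and probe sets were ranked by their largest group mean, of which the top 10522 entered the fit (lowest 7.33). A mean per group was fitted to all arrays with limma 3.58.1 (R 4.3.3; 5 residual degrees of freedom, prior 3.9), with Benjamini-Hochberg adjustment over the kept probe sets and a threshold of 0.05; the fit was tested on simulated data. Lone arrays were assumed to vary like pairs, and the number of arrays limits the precision. Ranges, motifs and figures used Python 3.11.15. Members and lists were chosen with earlier results of these data known. Genes with full statistics were those called, those with per-array values mainly the 12 members with the lowest adjusted p at brain P1, P2 or between late and early brain, and at most 4 genes per list and comparison; 1 further list of genes is not reported here. Alternatives were no filter, a limit of 7000 probe sets, cyclic loess, array medians made equal, chromosome medians subtracted, a variance trend with robust estimation, the mean over probe sets, leaving out single arrays or the 5 arrays with the highest 5th percentile, a replicate block, and both adaptations in 1 model with a random block. Gene names and chromosomes came from RefSeq on GRCm38.p6, to which 21553 gene identifiers matched.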

Additional observations from a re-analysis of the deposited data

Results flagged for a closer look

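The 2 adaptations on brain differed from each other at P1 and P2 in 10 members by the test of the difference itself (limma, adjusted p under 0.05). The log2 differences, second minus first adaptation, were Crip2 (3.26), Tns4 (3.50), Lima1 (-1.57), Ankrd1 (1.02), Rhoc (1.14), Vcl (0.92), Actn1 (1.48), Cald1 (0.70), Ctgf (1.21) and Tln1 (0.94). The second adaptation had 1 array per passage and the first had 2.

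Early brain cells differed from early marrow and lung cells in 9 members by the same kind of test. The log2 differences, brain minus marrow and lung, were Crip2 (-3.62), Tns4 (-3.51), Vcl (-1.01), Lima1 (1.15), Rhoc (-0.92), Ankrd1 (-0.61), Cnn2 (-0.81), Actn1 (-1.14) and Tln1 (-0.81). Both sets of differences use the 4 early brain arrays of the first adaptation.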

How the results depend on the processing

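At brain P1, with 4 members called, 2 were called with no filter, 2 with chromosome medians subtracted, 2 without the 5 arrays of highest floor and 0 with both adaptations and a random block; leaving out 1 array gave 2 to 3. At brain P2, with 3 called, the counts were 1 with no filter, 0 without the arrays of highest floor and 0 with the random block, and 1 to 3 with 1 array left out. Between late and early brain, with 11 called, they were 7 with no filter, 6 of them among the 11, and 2 without the arrays of highest floor, and 8 to 13 with 1 array left out. Between the second and first adaptations, with 10 called, they were 4 with no filter and 2 without those arrays, and 7 to 10 with 1 array left out. Between early brain and early marrow and lung, with 9 called, 6 were called with no filter, 5 of them among the 9, and leaving out 1 array gave 8 to 9; without the arrays of highest floor this comparison and that of lung could not be made as planned, since lung P1 was among them. The other comparisons gave 0 under every alternative run. No change of a called member reversed its sign under the alternatives. The signs of members not called and of genes outside the members were not followed across the alternatives. Tns4 and Crip2 stayed called between late and early brain, against marrow and lung and between adaptations under the alternatives run there. The random block of both adaptations, under which neither was called at brain P1 or P2, was not run on these 3 comparisons, nor the omission of the arrays of highest floor on that with marrow and lung. The causes of these shifts were not tested.

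Arrays with the same number did not deviate together in all groups (correlations of the deviations 0.01 to 0.36), so the numbers were not read as pairs. With a replicate block 4 members were called at brain P1, 4 at P2, 12 between late and early brain, 9 against marrow and lung, 13 between the adaptations and 0 in the other comparisons.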
